A study of Mus musculus with 22 samples.

Results

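Amino acid stress is read out in cells through the transcription factor ATF4, and the 10 genes described here were chosen by name as *Atf4* itself, 5 genes of the stress response it is known for (*Ddit3*, *Trib3*, *Asns*, *Chac1* and *Sesn2*) and 4 genes of serine and mitochondrial folate synthesis (*Psat1*, *Phgdh*, *Shmt2* and *Mthfd2*). They are 10 of the 55401 gene identifiers counted, and all 10 passed the filter on low counts in both sets of cells. When amino acids run short or the endoplasmic reticulum is stressed, phosphorylated eIF2 lowers general translation but allows ATF4 protein to be made, and ATF4 then switches on genes for amino acid synthesis, import and tRNA charging. mTORC1, the growth kinase complex upstream of the S6 kinases, also raises ATF4 and through it the serine and folate genes. PHGDH and PSAT1 make serine from a glycolytic intermediate, and SHMT2 and MTHFD2 pass its one-carbon unit through folate in mitochondria.

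Mouse embryonic fibroblasts (MEFs), primary cells that stop dividing when passaged serially, were profiled by RNA-seq in 22 libraries from 2 sets of cultures. In the *S6K1* set, 4 libraries came from *S6K1* WT MEFs at passage 3 (early), 4 from *S6K1* WT MEFs at passage 8 (late) and 3 from *S6K1* KO MEFs at passage 8. In the *S6K1/S6K2* set, 4 came from *S6K1/S6K2* WT MEFs at passage 3, 4 from *S6K1/S6K2* WT MEFs at passage 8 and 3 from *S6K1/S6K2* DKO MEFs, which lack both S6 kinases, at passage 8. No KO or DKO library was made at passage 3, so every mutant library is a late one. According to the study's methods, *S6K1* KO and WT MEFs were littermates, but the labels do not say which libraries share a mother. The DKO MEFs had no littermate controls, because their WT MEFs were taken from WT mothers earlier in the breeding, and litter and genotype cannot be told apart there. The study describes its MEF replicates as coming from different embryos, but the labels tie no library to an embryo, and *P* values measure the spread between these libraries.

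The total count per library was 10742454 to 17314832, and the lowest belonged to DKO replicate 2. *Rps6kb1*, which encodes S6K1, stood at 20 ± 5.06 CPM (counts scaled to library size) in KO (SD, n = 3) against 63.5 ± 9.15 CPM in late WT MEFs (n = 4), and at 23.9 ± 4.02 CPM in DKO (n = 3) against 73.7 ± 10.5 CPM (n = 4). *Rps6kb2*, which encodes S6K2, stood at 0.811 ± 0.478 CPM in DKO MEFs (n = 3) against 13.2 ± 2.47 CPM in late WT MEFs (n = 4). All 10 fibroblast markers were detected in every group, and so were all 15 macrophage markers, whose summed level differed widely between groups as given beside the results. The labels do not give embryo sex. Y-linked genes summed to over 1 CPM in 2 of 4, 1 of 4 and 3 of 3 libraries of the *S6K1* set (early WT, late WT, late KO) and in 2 of 4, 3 of 4 and 1 of 3 libraries of the *S6K1/S6K2* set (early WT, late WT, late DKO).

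The sequence that ATF4 and its partners of the C/EBP family are known to bind is the C/EBP-ATF response element, whose core TGATGNAA (TTNCATCA on the other strand) was searched on both strands of RefSeq promoters of mouse build GRCm38.p6, from 250 bases before to 50 bases after each gene start. Promoters of all 10 genes were found, 11 in all because *Psat1* has 2. The core was present in 3 of these 11 promoters (27.3%) and in 1304 of all 32851 promoters of the same length (3.97%). The stretches that hold it in *Asns*, *Trib3* and *Chac1*, the 3 genes with a match, are shown with the core in capitals and 11 bases on each side.
Asns, chr6:7693214-7693243, minus strand: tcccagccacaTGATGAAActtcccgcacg
Trib3, chr2:152344028-152344057, minus strand: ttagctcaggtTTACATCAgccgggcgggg
Chac1, chr2:119351038-119351067, plus strand: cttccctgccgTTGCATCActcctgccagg
Each stretch is written 5′ to 3′ along its gene's strand. In *Asns* the core reads along the gene and starts 23 bases before the gene start. In *Chac1* it lies on the opposite strand 193 bases before the gene start, and in *Trib3* on the opposite strand 14 bases after it. *Atf4*, *Ddit3*, *Sesn2*, *Psat1*, *Phgdh*, *Shmt2* and *Mthfd2* had no match in this window, so none of the 4 serine and folate genes held these letters there. For *Mthfd2* the window was chr6:83317555-83317854 (minus strand), set around a promoter start inside the gene's RefSeq span (chr6:83305704-83326011). The upstream end of that span was not searched. A match of 8 letters is a description of the sequence and not of binding, and no other motif was searched. Counted by gene, it was present in 1219 of all 27025 genes (4.51%). Among pathway genes that had a promoter entry, 7 of 19 other ATF4 partners and stress targets and 5 of 11 cytosolic tRNA synthetases held it. So did 2 of 7 amino acid transporters, 1 of 12 eIF2 kinases and regulators and 1 of 13 ER chaperone and unfolded protein response genes. It was present in 0 of 20 further serine, glycine and folate genes.

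On the same build *Atf4* lies at chr15:80255184-80257545 and *Ddit3* at chr10:127290793-127296291 (plus strand). *Trib3* lies at chr2:152337425-152344060, *Psat1* at chr19:15905123-15925059 and *Shmt2* at chr10:127517123-127522444 (minus strand). Levels differed widely among the 10 genes. Per kilobase of exon, the mean over the 22 libraries was highest for *Atf4* (202 CPM per kb) and lowest for *Chac1* (6.85 CPM per kb), which encodes an enzyme that degrades glutathione. *Asns*, *Phgdh* and *Ddit3* followed *Atf4* at 71.6, 68.9 and 64.8 CPM per kb. Their ranges over the libraries overlapped, at 41.9 to 93.5, 28.9 to 92.7 and 44.7 to 108 CPM per kb. *Shmt2*, *Psat1*, *Mthfd2* and *Trib3* had means of 44.8, 37, 27.3 and 25.9 CPM per kb, and *Sesn2* of 11.5 CPM per kb. The spread between the highest and the lowest of the 22 libraries was widest for *Chac1* (7.08-fold) and *Trib3* (6.06-fold), and narrowest for *Atf4* (1.98-fold). Exon lengths came from another annotation release than the counts may have used, so these levels order the genes only roughly. In RefSeq the ends of *Ddit3* overlap those of *Mbd6* by 77 bases and of *Mars1* by 71 bases, and *Shmt2* overlaps *Ndufa4l2* by 32 bases. Reads there, and reads shared with near-identical copies elsewhere in the genome, may have been assigned to either gene.

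**Figure D1:**
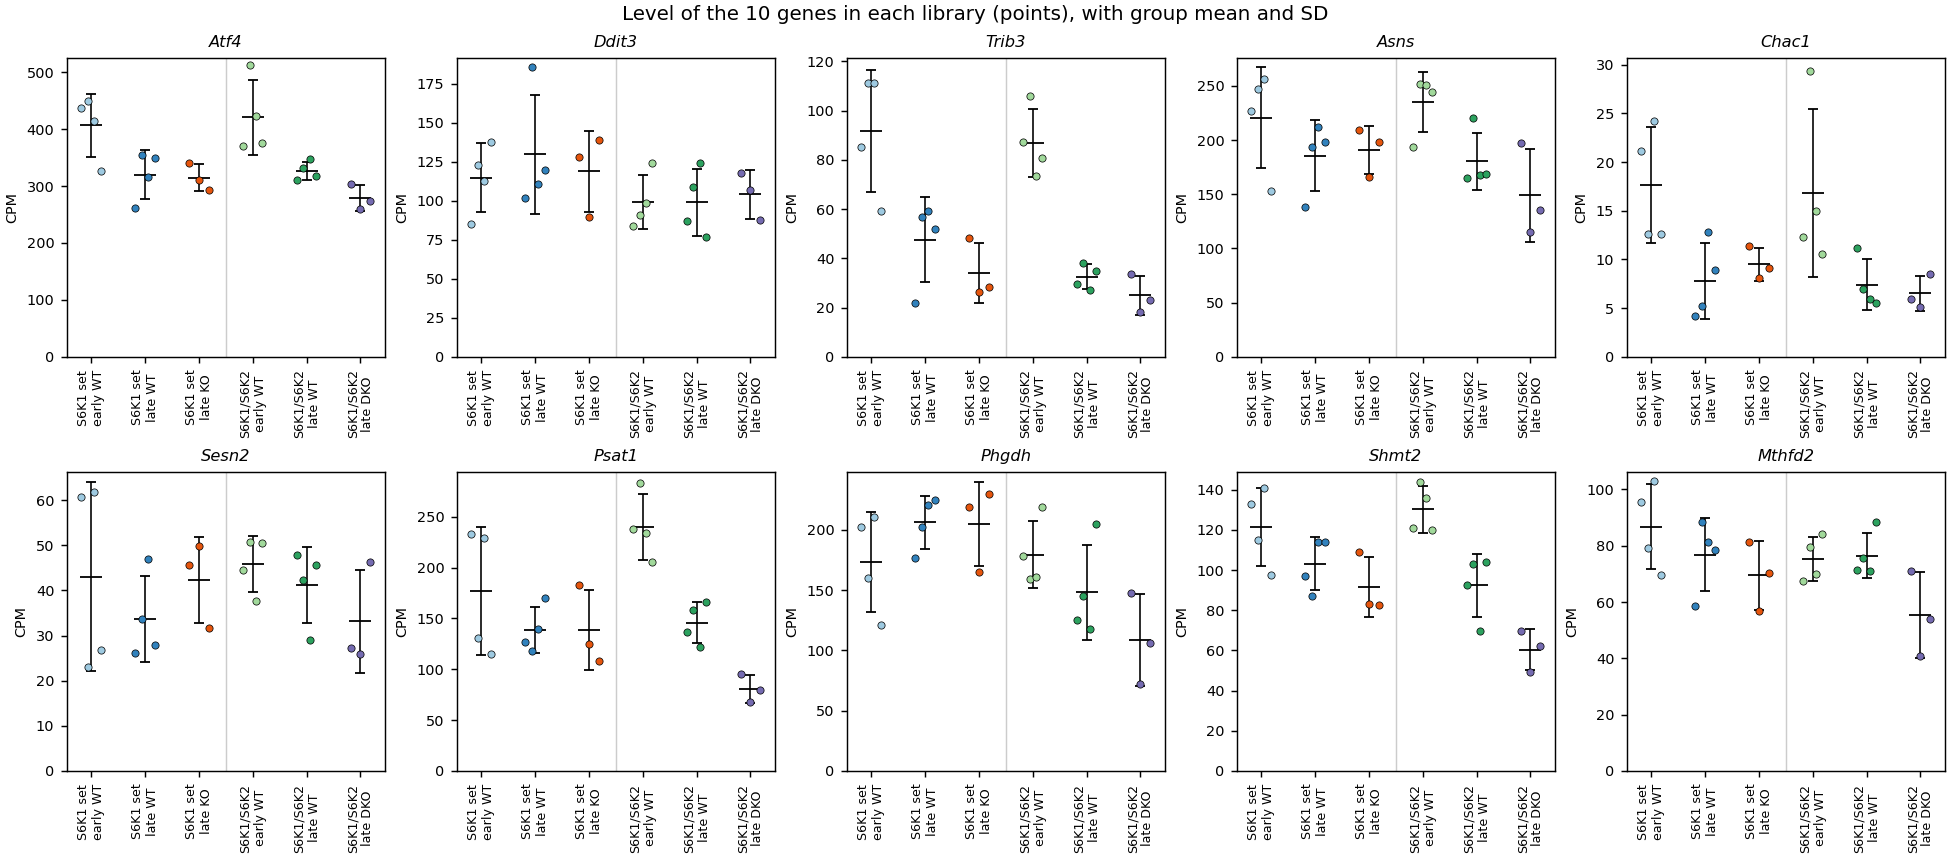
Level of each of the 10 genes in CPM (vertical axes, starting at 0) in the 6 groups, with 1 point per library, a horizontal bar at the group mean and error bars of 1 SD. The early WT libraries of *Trib3* (59.4 to 111 CPM in the *S6K1* set and 73.4 to 106 CPM in the *S6K1/S6K2* set) lie above all late libraries of their set, and the DKO libraries of *Psat1* (67.4 to 95 CPM) lie below all WT libraries of theirs.

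The first comparison asked how the 10 genes differ between early and late WT MEFs. In the *S6K1* set, *Chac1* fell, and the other 9 genes did not pass the test. In the *S6K1/S6K2* set, *Trib3*, *Chac1* and *Psat1* fell. No gene of the 10 rose in either set, where 6.96% and 8.28% of all genes tested did. Throughout, a gene is called when its *P* value, from edgeR's quasi-likelihood test adjusted by the Benjamini-Hochberg method over all genes tested, is below 0.05. The 1 of 10 genes called lower in the *S6K1* set compares with 5.97% of all 14132 genes tested, and the 3 of 10 in the *S6K1/S6K2* set with 4.89% of all 14365.

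*Trib3* encodes a pseudokinase that is induced by ATF4 and CHOP and restrains AKT. Its level in the *S6K1* set was 85.2, 111, 111 and 59.4 CPM in the 4 early WT libraries and 22, 56.7, 59.3 and 51.9 CPM in the 4 late WT libraries. The groups did not overlap, though the highest late library nearly met the lowest early one. The log2 difference of −0.95 (SE 0.31) did not pass the test (adjusted *P* = 0.0675), but did so with DESeq2 (0.0304), a fit on all 6 groups (0.0211) or without early WT replicate 4 (0.0498). In the *S6K1/S6K2* set, *Trib3* stood at 87.2, 106, 73.4 and 80.7 CPM in early and at 29.6, 38.3, 27.3 and 34.9 CPM in late WT MEFs. Here every late library lay well below every early one. *Trib3* fell by 1.38 on the log2 scale (SE 0.19, adjusted *P* = 0.00102), to 0.383 of its early level.

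*Chac1*, the glutathione-degrading enzyme, had the lowest counts of the 10 genes. The *S6K1* set had 21.1, 12.6, 24.2 and 12.6 CPM in early and 4.16, 5.27, 12.8 and 8.91 CPM in late WT MEFs. The *S6K1/S6K2* set had 12.3, 29.4, 15 and 10.6 CPM in early and 11.2, 6.98, 5.97 and 5.49 CPM in late WT MEFs. Early and late libraries overlapped in both sets, by a single library on the late side in each. *Chac1* fell by 1.18 (SE 0.35, adjusted *P* = 0.0428) in the *S6K1* set and by 1.15 (SE 0.34, adjusted *P* = 0.0431) in the *S6K1/S6K2* set on the log2 scale. Both calls lay close to the threshold. The call was lost in the *S6K1* set without early replicate 1 or 3 or late replicate 1, 2 or 4 (adjusted *P* of 0.0662 to 0.111), and in the *S6K1/S6K2* set without early replicate 1, 2 or 3 or late replicate 2, 3 or 4 (adjusted *P* of 0.0587 to 0.133). A fit on the 2 groups alone also ended it in both sets (adjusted *P* = 0.0885 and 0.0605), as did total-count scaling in the *S6K1* set (0.0706) and no filter in the *S6K1/S6K2* set (0.065).

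*Psat1*, the aminotransferase of the second step of serine synthesis, stood at 238, 283, 234 and 205 CPM in early and at 137, 158, 122 and 166 CPM in late WT MEFs of the *S6K1/S6K2* set. The groups did not overlap, and *Psat1* fell by 0.69 on the log2 scale (SE 0.15, adjusted *P* = 0.0102). Its level in the *S6K1* set was 233, 131, 229 and 115 CPM in early and 127, 118, 140 and 170 CPM in late WT MEFs. These early libraries split into a high pair and a low pair, the late libraries lay within, between or just above the low pair, and the difference of −0.36 (SE 0.25) did not pass (adjusted *P* = 0.395). The high pair, early WT replicates 1 and 3, had 206 and 240 CPM of summed Y-linked genes, and the low pair, replicates 2 and 4, had 0.15 and 0.879 CPM. *Sesn2*, a leucine sensor that restrains mTORC1, split the same way, at 60.7 and 61.7 CPM against 23.1 and 26.7 CPM. *Chac1*, called lower with passage in this set, did so too (21.1 and 24.2 against 12.6 and 12.6 CPM), as did *Phgdh*, *Shmt2* and *Mthfd2*. *Ddit3* split the other way (85.2 and 113 against 123 and 138 CPM), and *Atf4*, *Trib3* and *Asns* did not split. The same pairs were closest over all genes (chi-square of counts per degree of freedom 68.3 and 64.3, against 109 to 266 across them). In early WT MEFs of the *S6K1/S6K2* set, *Psat1* and *Sesn2* did not split by Y-linked genes. There replicates 2 and 3 had 256 and 253 CPM of Y-linked genes. *Psat1* stood at 283 and 234 CPM in them against 238 and 205 CPM, and *Sesn2* at 50.8 and 37.7 against 44.6 and 50.6 CPM. *Chac1* (29.4 and 15 against 12.3 and 10.6 CPM), *Shmt2*, *Atf4* and *Asns* were higher in replicates 2 and 3, and *Phgdh* was lower. With a Y-linked covariate the passage difference in the *S6K1* set was −0.13 for *Psat1* (adjusted *P* = 0.722) and 0.05 for *Sesn2* (adjusted *P* = 0.883). Sex, embryo and litter cannot be told apart here, and their part in these levels was not tested.

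*Atf4* stood at 407 ± 55 CPM in early and 320 ± 42.9 CPM in late WT MEFs of the *S6K1* set (SD, n = 4 each), and at 421 ± 65.7 and 327 ± 16.4 CPM in the *S6K1/S6K2* set (n = 4 each). The late libraries (310 to 347 CPM) lay below the early ones (371 to 512 CPM) in the *S6K1/S6K2* set, while in the *S6K1* set late (261 to 354 CPM) and early libraries (327 to 449 CPM) overlapped. The log2 differences of −0.35 (SE 0.15, adjusted *P* = 0.158) and −0.34 (SE 0.12, adjusted *P* = 0.089) did not pass. The test sees *Atf4* RNA and not ATF4 protein, which is controlled mainly through translation.

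*Shmt2*, the mitochondrial enzyme that splits serine into glycine and a one-carbon unit, stood at 121, 144, 136 and 120 CPM in early and at 92.6, 103, 69.8 and 104 CPM in late WT MEFs of the *S6K1/S6K2* set. The groups did not overlap, and the difference of −0.47 (SE 0.15) lay just outside the threshold (adjusted *P* = 0.0556). *Shmt2* passed with RLE scaling, no filter or a fit on all 6 groups (adjusted *P* of 0.0364 to 0.0463), and without early or late WT replicate 4 (0.0486 and 0.0473). With DESeq2 or total-count scaling both *Atf4* (adjusted *P* = 0.0327 and 0.0434) and *Shmt2* (0.0171 and 0.0485) passed, and 5 of the 10 genes were called lower with passage in this set.

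The remaining genes did not pass in either set. *Asns*, which makes asparagine, differed by −0.25 in the *S6K1* set and −0.35 in the *S6K1/S6K2* set on the log2 scale, and *Sesn2* by −0.36 and −0.13. *Ddit3*, which encodes the stress transcription factor CHOP, differed by 0.17 and 0.03, with 95% intervals of −0.31 to 0.65 and −0.34 to 0.39. *Phgdh*, the enzyme of the first step of serine synthesis, differed by 0.25 and −0.25, and *Mthfd2*, the mitochondrial folate dehydrogenase, by −0.18 and 0.05. Over all 10 genes the median log2 difference was −0.30 in the *S6K1* set, beside −0.04 over all genes tested, and −0.34 in the *S6K1/S6K2* set, beside 0.01. The groups did not overlap, with late below early, for 1 of 10 genes in the *S6K1* set (9.14% of all genes tested) and for 4 of 10 in the *S6K1/S6K2* set (10.1% of all genes tested).

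These levels came from bulk RNA, in which fewer cells of a type and less RNA per cell cannot be told apart. The 15 macrophage markers all rose with passage in both sets (6.96% and 8.28% of all genes tested did). Their summed level was 496 to 1116 CPM in early and 5528 to 11519 CPM in late WT libraries of the *S6K1* set, and 618 to 2068 CPM and 7728 to 13209 CPM in the *S6K1/S6K2* set. Of 15 proliferation genes, none passed in the *S6K1* set and 5 fell in the *S6K1/S6K2* set, where their summed level was 548 to 824 CPM in early and 470 to 562 CPM in late WT MEFs. The 10 fibroblast markers summed to 28781 to 36501 CPM in early and 19398 to 25947 CPM in late WT libraries of the *S6K1* set, and to 30337 to 39307 CPM and 19622 to 26596 CPM in the *S6K1/S6K2* set, without overlap, and 2 of the 10 fell in each set. The 8 epithelial and mesothelial markers summed to 56.2 to 103 CPM in early and 18.7 to 39.2 CPM in late WT libraries of the *S6K1* set, where *Krt8* was at 0 in every late library, and to 89.1 to 118 CPM and 13 to 42.6 CPM in the *S6K1/S6K2* set. Of the 6 of these 8 that were tested, 3 fell in each set. Over all genes tested, 5.97% fell in the *S6K1* set and 4.89% in the *S6K1/S6K2* set. The part of these 4 lists in the differences of the 10 genes was not tested.

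**Figure D2:**
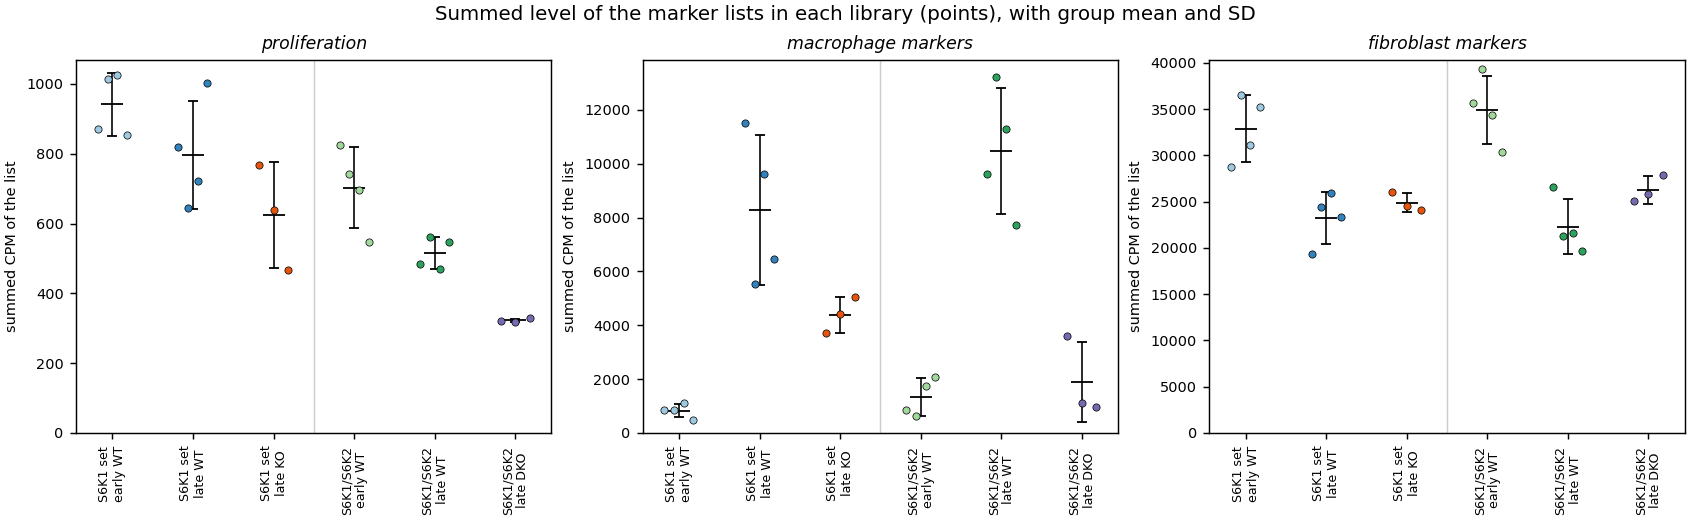
Summed level in CPM (vertical axes, starting at 0) of 15 proliferation genes, 15 macrophage markers and 10 fibroblast markers in the 6 groups, with 1 point per library, a horizontal bar at the group mean and error bars of 1 SD. Macrophage markers are highest in late WT MEFs (up to 11519 and 13209 CPM in the 2 sets) and proliferation genes are lowest in late DKO MEFs (318 to 328 CPM).

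The second comparison asked whether loss of S6K1 alone changes the 10 genes in late MEFs. No gene passed, and none had an unadjusted *P* below 0.05. The smallest adjusted *P* among them was 0.67. Over all genes 6 of 14132 (0.0425%) passed with edgeR and 1499 had an unadjusted *P* below 0.05, while DESeq2 called 261 genes, none of the 10 among them. *Atf4* stood at 340, 311 and 293 CPM in the 3 KO libraries, inside the range of late WT MEFs (261 to 354 CPM), and its difference of −0.03 had a 95% interval of −0.38 to 0.33. *Psat1* stood at 183, 125 and 108 CPM in KO against 118 to 170 CPM in late WT MEFs, and its difference of 0.00 had an interval of −0.60 to 0.60. The KO libraries of *Psat1* thus spanned more than those of late WT MEFs.

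*Trib3* had the largest difference between KO and late WT MEFs, at 48.1, 26.2 and 28.2 CPM in KO against 22, 56.7, 59.3 and 51.9 CPM. The late WT value of 22 CPM lay below all KO libraries, and the difference of −0.48 (SE 0.34) had a 95% interval of −1.22 to 0.27. *Chac1* and *Sesn2* had estimates above 0, at 0.28 (interval −0.53 to 1.09) and 0.33 (interval −0.44 to 1.09). The intervals of *Shmt2* (−0.55 to 0.20), *Mthfd2* (−0.57 to 0.27), *Phgdh* (−0.45 to 0.42), *Asns* (−0.40 to 0.48) and *Ddit3* (−0.64 to 0.40) all contained 0. The median over the 10 genes was −0.02, beside −0.01 over all genes, and no gene had groups that did not overlap (6.19% of all genes were separated downwards). The macrophage markers summed to 3717 to 5031 CPM in KO MEFs, below the 5528 to 11519 CPM of late WT MEFs, although none of the 15 passed the test. All 3 KO libraries and 1 of 4 late WT libraries carried Y-linked reads. With a Y-linked covariate, the estimates of *Ddit3*, *Asns*, *Chac1*, *Sesn2* and *Psat1* changed sign, and none of these passed in either fit.

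The third comparison asked the same of MEFs that lack both S6 kinases. *Psat1* and *Shmt2*, both of the serine and folate arm, fell in late DKO against late WT MEFs, and none of the 10 genes rose (0.821% of all genes did). These 2 of 10 genes compare with 3.95% of all genes called lower. *Psat1* stood at 95, 67.4 and 79.6 CPM in the DKO libraries against 137, 158, 122 and 166 CPM in late WT MEFs. No library of one group reached the other, and *Psat1* fell by 0.87 on the log2 scale (SE 0.16, adjusted *P* = 0.0125), to 0.547 of the WT level. *Shmt2* stood at 69.7, 49.3 and 62.2 CPM against 92.6, 103, 69.8 and 104 CPM. The highest DKO and the lowest late WT library nearly met, and *Shmt2* fell by 0.63 (SE 0.16, adjusted *P* = 0.0476).

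Both calls depended on which libraries were kept. Without DKO replicate 2, which had the fewest counts, *Psat1* differed by −0.74 (adjusted *P* = 0.0863) and *Shmt2* by −0.48 (adjusted *P* = 0.233), and without DKO replicate 3 by −0.86 (adjusted *P* = 0.0584) and −0.65 (adjusted *P* = 0.122). *Shmt2* was also lost without late WT replicate 1, 2 or 4 (adjusted *P* of 0.0724 to 0.132), and with RLE or total-count scaling, a Y-linked covariate or a fit on the 2 groups alone (adjusted *P* of 0.0525 to 0.108). DKO replicate 2 held the lowest value of its set for 9 of the 10 genes, all but *Ddit3*. It was also the 1 DKO library with over 1 CPM of summed Y-linked genes, at 305 CPM against 0 and 0.124 CPM in replicates 1 and 3. Low depth and Y-linked reads thus came together in this library.

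The other serine and folate genes had estimates below 0 that did not pass, though each passed under 1 alternative. *Mthfd2* stood at 71.1, 40.9 and 54.1 CPM in DKO and at 71.4, 75.5, 70.9 and 88.3 CPM in late WT MEFs, a difference of −0.48 (SE 0.17, adjusted *P* = 0.143) that became −0.69 and passed without DKO replicate 1 (adjusted *P* = 0.0329). *Phgdh* stood at 148, 71.9 and 106 CPM in DKO and at 125, 145, 118 and 205 CPM in late WT MEFs, a difference of −0.47 (SE 0.25, adjusted *P* = 0.348). With the Y-linked covariate, under which the call of *Shmt2* was lost, *Phgdh* differed by −0.71 and passed (adjusted *P* = 0.0426). In both genes DKO replicate 1 lay within the WT range and DKO replicates 2 and 3 lay below it. The median of the 4 serine and folate genes was −0.56, beside −0.01 over all genes tested.

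Among the stress genes, *Atf4* stood at 303, 259 and 274 CPM in DKO, below the 310 to 347 CPM of late WT MEFs. The groups did not overlap, but the difference of −0.24 (95% interval −0.53 to 0.05) did not pass (adjusted *P* = 0.37). *Trib3* differed by −0.40 (interval −0.84 to 0.05), *Sesn2* by −0.33 (interval −0.81 to 0.16), *Asns* by −0.29 (interval −0.69 to 0.11) and *Chac1* by −0.19 (interval −1.0 to 0.62). *Ddit3* had the 1 estimate above 0, at 0.05 (interval −0.34 to 0.45). The median over the 6 stress genes was −0.27. Among all 10 genes, DKO lay below late WT MEFs without overlap for 3 (10% of all genes tested).

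Markers of macrophages and of proliferation also differed between these groups, where 3.95% of all genes fell. Macrophage markers summed to 3586, 1105 and 969 CPM in the DKO libraries against 7728 to 13209 CPM in late WT MEFs, and 14 of the 15 fell. Proliferation genes summed to 321, 318 and 328 CPM in DKO against 470 to 562 CPM in late WT MEFs, and 10 of the 15 fell. Their part in the levels of *Psat1* and *Shmt2* was not tested.

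**Figure D3:**
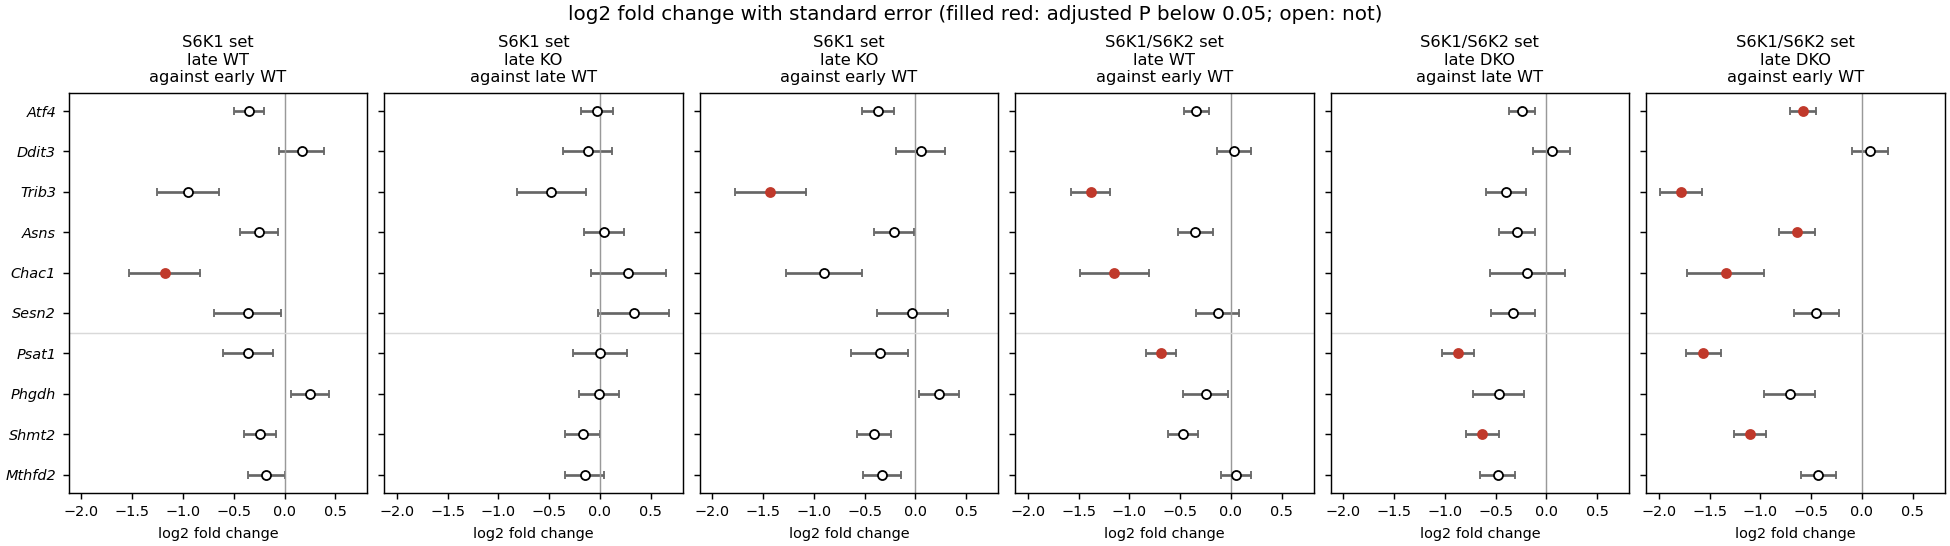
log2 fold change (horizontal axes) of the 10 genes (vertical axis, stress genes above the grey line and serine and folate genes below it) in the 6 comparisons, with error bars of 1 SE. Filled red points passed an adjusted *P* of 0.05 and open points did not, from 0 of 10 in *S6K1* KO against late WT MEFs to 6 of 10 in DKO against early WT MEFs.

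Late mutant MEFs were also set against early WT MEFs, a comparison in which passage and genotype differ together and which shares its early WT and mutant libraries with those above. In the *S6K1* set, *Trib3* fell in KO MEFs by 1.43 on the log2 scale (SE 0.35, adjusted *P* = 0.0237), the 1 gene of 10 that passed, beside 5.24% of all genes called lower. The call was lost without early WT replicate 2, KO replicate 2 or KO replicate 3 (adjusted *P* of 0.0613 to 0.106), or without a filter on low counts (adjusted *P* = 0.055). *Chac1*, at 11.4, 8.11 and 9.08 CPM in KO, lay below all early WT libraries (12.6 to 24.2 CPM), but its difference of −0.90 (SE 0.37) did not pass (adjusted *P* = 0.138). With a Y-linked covariate *Chac1* (−1.28, adjusted *P* = 0.0145) and *Shmt2* (−0.55, adjusted *P* = 0.0498) passed beside *Trib3*. *Trib3* and *Chac1* were the 2 of 10 genes separated downwards, beside 13.1% of all genes.

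In the *S6K1/S6K2* set, 6 of the 10 genes fell in DKO against early WT MEFs, beside 8.92% of all genes called lower. *Trib3* fell by 1.78 (SE 0.21, adjusted *P* = 0.000482), *Psat1* by 1.56 (SE 0.17, adjusted *P* = 0.000291) and *Shmt2* by 1.10 (SE 0.16, adjusted *P* = 0.00145) on the log2 scale. *Psat1* thus stood at 0.339 of its early WT level and *Trib3* at 0.291. These 3 genes passed whichever library was left out. *Atf4* fell by 0.58 (SE 0.13, adjusted *P* = 0.013), from 371, 512, 423 and 376 CPM in early WT to 303, 259 and 274 CPM in DKO MEFs. *Chac1* fell by 1.34 (SE 0.38, adjusted *P* = 0.0297) and *Asns* by 0.64 (SE 0.18, adjusted *P* = 0.032).

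*Asns* overlapped between the groups, since DKO replicate 1 (197 CPM) reached above the lowest early WT library (194 CPM), while DKO replicates 2 and 3 stood at 115 and 135 CPM. Without DKO replicate 2, *Atf4* (−0.53, adjusted *P* = 0.072), *Asns* (−0.49, adjusted *P* = 0.146) and *Chac1* (−1.21, adjusted *P* = 0.118) no longer passed and 3 of the 10 genes were called. *Asns* was also lost without early WT replicate 2, 3 or 4 or DKO replicate 3, and *Chac1* without early WT replicate 2 or DKO replicate 1. *Phgdh* did not pass at −0.71 (SE 0.25, adjusted *P* = 0.0644), although its DKO libraries lay below all early WT libraries (159 to 219 CPM). *Phgdh* passed with DESeq2 (adjusted *P* = 0.0288), total-count scaling (0.0464), a fit on all 6 groups (0.0415), the Y-linked covariate (−0.85, 0.00646) and without DKO replicate 1 (−1.01, 0.0266). *Mthfd2* (−0.43, adjusted *P* = 0.0953) passed with the Y-linked covariate (−0.50, 0.044) and without DKO replicate 1 (−0.66, 0.0246), and *Sesn2* passed without DKO replicate 3 (−0.79, 0.0224). The median over the 10 genes was −0.68, beside −0.00 over all genes, and 6 of the 10 were separated downwards, beside 16.4% of all genes. *Ddit3* stood at 104 CPM on average in DKO and 99.4 CPM in early WT MEFs, a difference of 0.08 (interval −0.32 to 0.48). Macrophage markers (969 to 3586 CPM in DKO, 618 to 2068 CPM in early WT MEFs) overlapped in this comparison and none of the 15 passed. Fibroblast markers (25032 to 27912 against 30337 to 39307 CPM) did not overlap, and of the 10, 2 fell and 2 rose. Epithelial and mesothelial markers (13.8 to 16.7 against 89.1 to 118 CPM) did not overlap either, and 3 of the 6 tested fell. Of the 15 proliferation genes 13 fell, beside 8.92% of all genes. The part of these lists in the differences of the 10 genes was not tested.

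Whether the 2 sets differed was tested as an interaction over all 22 libraries. For late against early WT MEFs, none of the 10 genes passed (smallest adjusted *P* = 0.603), beside 106 of 14886 genes (0.712%). The difference between the sets was −0.47 for *Trib3* (95% interval −1.27 to 0.34), −0.37 for *Psat1* (interval −1.0 to 0.27), −0.00 for *Chac1* (interval −1.05 to 1.04) and −0.02 for *Atf4* (interval −0.41 to 0.37). For late mutant against late WT MEFs, none of the 10 passed either, beside 1 gene of all tested (0.00672%). *Psat1* had the smallest *P* value among the 10, with a difference of −0.86 (SE 0.33, interval −1.55 to −0.17, adjusted *P* = 0.367). The unadjusted *P* was below 0.05 for *Psat1* alone (0.017) and for 1626 of all genes. The lower *Psat1* and *Shmt2* of DKO MEFs were therefore not shown to differ from what loss of S6K1 alone did, and *Shmt2* differed between the sets by −0.44 (interval −0.93 to 0.05).

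Libraries of 1 group also varied, and *Atf4* was compared with the other 9 genes across all 22 libraries after the mean of each group was subtracted from log2 CPM. *Trib3* varied with *Atf4* (Pearson's r = 0.74, Spearman's rho = 0.69, adjusted *P* = 0.0126 and 0.0127 by permutation within groups over 9 pairs). *Asns* did so too (r = 0.71, rho = 0.73, adjusted *P* = 0.0126 and 0.0105, permutation). *Mthfd2* passed by r (0.56, adjusted *P* = 0.042, permutation) and not by rho (0.52, adjusted *P* = 0.0987, permutation). Without the 2 libraries farthest from the median of *Atf4*, r was 0.74 for *Trib3*, 0.74 for *Asns* and 0.65 for *Mthfd2*. Within the sets r was 0.85 and 0.52 for *Trib3*, 0.83 and 0.55 for *Asns* and 0.72 and 0.35 for *Mthfd2* (*S6K1* set, then *S6K1/S6K2* set, 11 libraries each). Some pairs without *Atf4* were closer, at r = 0.86 for *Psat1* with *Shmt2* and *Phgdh* with *Mthfd2*, 0.82 for *Trib3* with *Asns*, and 0.79 for each of these with *Mthfd2*. Pairs with *Ddit3* ran from −0.47 to 0.23. The share of all genes that vary as closely with *Atf4* is not given here.

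*Chac1* (r = 0.49), *Psat1* (0.51), *Shmt2* (0.43), *Phgdh* (0.27), *Sesn2* (0.17) and *Ddit3* (0.10) did not pass. This contrast depended on the scaling, since with total counts in place of TMM r rose to 0.67 for *Chac1*, 0.73 for *Psat1*, 0.67 for *Shmt2*, 0.49 for *Phgdh* and 0.53 for *Sesn2*, and all 5 passed (adjusted *P* of 0.00216 to 0.0486, permutation), while *Ddit3* stood at −0.05. The libraries of a group share no label beyond the group. Cell composition, cultures, litter, sex or library quality that vary between libraries therefore enter these correlations, and their part was not tested. Late WT replicate 1 of the *S6K1* set, for example, was the lowest library of its set for *Atf4* (261 CPM), *Trib3* (22 CPM), *Asns* (138 CPM) and *Chac1* (4.16 CPM). The same library had the highest summed macrophage markers (11519 CPM) and the lowest summed fibroblast markers (19398 CPM) of its set. Other libraries differed. Late WT replicate 3 of that set, at 9609 CPM of macrophage and 25947 CPM of fibroblast markers, had the highest late WT *Trib3* (59.3 CPM), *Asns* (212 CPM) and *Chac1* (12.8 CPM). DKO replicate 2, lowest of its set for 9 of the 10 genes, had 1105 CPM of macrophage and 25839 CPM of fibroblast markers.

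**Figure D4:**
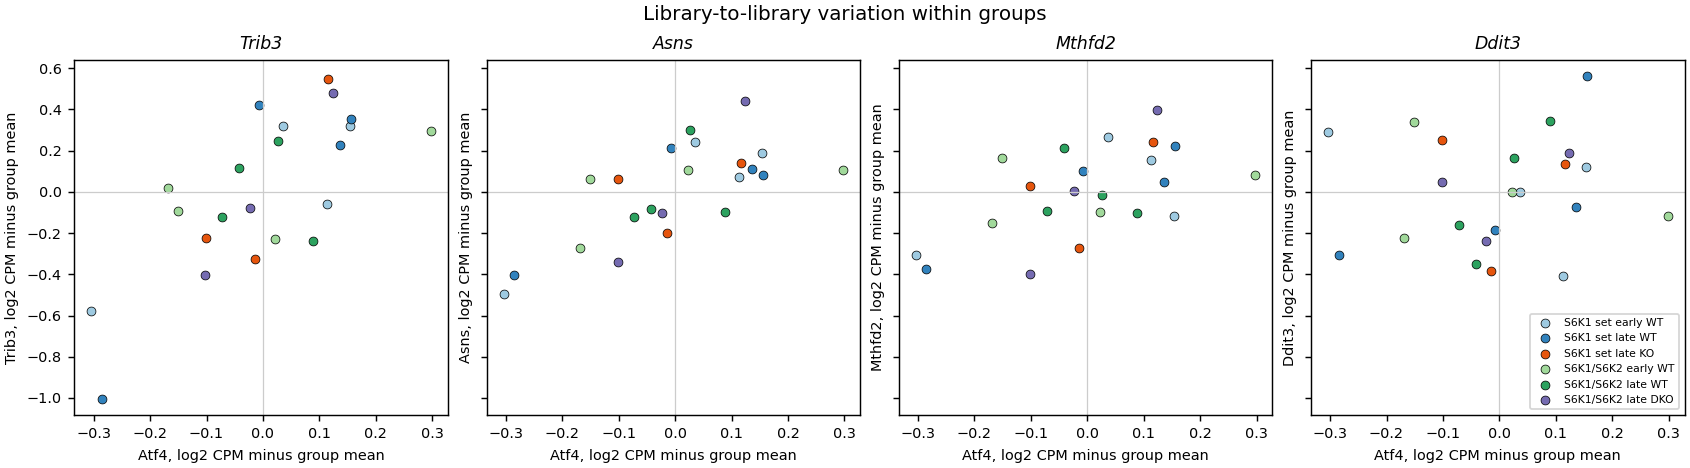
Deviation of *Trib3*, *Asns*, *Mthfd2* and *Ddit3* (vertical axes) and of *Atf4* (horizontal axes) from their group means, in log2 CPM, with 1 point per library coloured by group (22 libraries). The points of *Trib3* (r = 0.74) and *Asns* (r = 0.71) rise with *Atf4*, and those of *Ddit3* (r = 0.10) scatter.

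Other genes of the pathway were read from 6 lists, to be set beside the shares of all genes tested that fell with passage (5.97% in the *S6K1* and 4.89% in the *S6K1/S6K2* set) or rose (6.96% and 8.28%). Of the 11 amino acid transporters, 3 fell with passage in the *S6K1* set and 7 in the *S6K1/S6K2* set, with a median log2 difference of −0.68 in both. *Slc1a5*, a carrier of glutamine and other neutral amino acids, fell from 42.5 ± 5.21 to 20.9 ± 4.88 CPM in the *S6K1* set (SD, n = 4 each, −1.03 on the log2 scale, adjusted *P* = 0.0133) and from 41.3 ± 13.5 to 16.1 ± 2.54 CPM in the *S6K1/S6K2* set (n = 4 each, −1.33, adjusted *P* = 0.00441). The glycine carrier *Slc6a9* (−0.85 and −0.79) and the glutamine carrier *Slc38a1* (−0.68 and −0.66) also fell in both sets. The large neutral amino acid carrier *Slc43a1* (−2.23) and the cationic amino acid carrier *Slc7a3* (−1.25) fell in the *S6K1/S6K2* set. None of the 11 passed in *S6K1* KO or DKO against late WT MEFs, and the smallest *P* values belonged to *Slc1a5* in KO (−0.82, adjusted *P* = 0.308) and *Slc7a5* in DKO MEFs (−0.53, adjusted *P* = 0.227). Against early WT MEFs, 5 of 11 fell in KO (5.24% of all genes) and 7 of 11 in DKO MEFs (8.92% of all genes).

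Of 22 other ATF4 partners and stress targets, 5 fell and none rose with passage in the *S6K1* set, while 4 fell and 2 rose in the *S6K1/S6K2* set, where the 2 that rose were near the 8.28% of all genes. *Stc2*, a secreted glycoprotein gene, fell in both (−1.70, adjusted *P* = 0.0138, and −1.83, adjusted *P* = 0.0398). *Gpt2*, a mitochondrial alanine transaminase, fell in the *S6K1* set (−0.81), and *Aldh18a1* of proline synthesis fell in the *S6K1/S6K2* set (−0.74). *Ddit4*, an mTORC1 inhibitor, fell in both (−0.64, adjusted *P* = 0.00379, and −0.70, adjusted *P* = 0.00324). *Ppp1r15a*, which encodes the eIF2 phosphatase subunit GADD34, fell from 124 ± 15.1 to 33.8 ± 2.42 CPM in the *S6K1* set (n = 4 each, −1.87, adjusted *P* = 9.09e-06) and rose from 52.1 ± 12.3 to 107 ± 15.1 CPM in the *S6K1/S6K2* set (n = 4 each, 1.07, adjusted *P* = 0.00181). *Atf3*, a transcription factor gene of the stress response, rose in the *S6K1/S6K2* set by 2.79 (adjusted *P* = 7.66e-06). In DKO against late WT MEFs, *Atf3* fell by 1.21 (adjusted *P* = 0.00466) and *Cth*, of cysteine synthesis, by 1.08 (adjusted *P* = 0.0398), and the other 20 did not pass (3.95% of all genes fell there). None of the 22 passed in KO against late WT MEFs, where the smallest *P* value belonged to *Cebpb* (−0.53, adjusted *P* = 0.234). Against early WT MEFs, 3 of the 22 fell and 0 rose in KO MEFs (5.24% of all genes fell). In DKO MEFs 8 of the 22 fell against early WT MEFs (8.92% of all genes fell). Another 3 of the 22 rose there, and the share of all genes that rose is not given here.

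Of 22 further serine, glycine and folate genes tested, 3 fell with passage in the *S6K1* set and 4 in the *S6K1/S6K2* set, beside 5.97% and 4.89% of all genes, and none rose. *Aldh1l2*, which oxidises formyl-folate in mitochondria, fell in both (−1.18, adjusted *P* = 0.0202, and −1.28, adjusted *P* = 0.028). Its cytosolic counterpart *Aldh1l1* (−1.08) and *Mat2a* of S-adenosylmethionine synthesis (−0.54) fell in the *S6K1* set. *Mthfd1l*, which releases formate from mitochondrial folate, fell in the *S6K1/S6K2* set (−0.84, adjusted *P* = 0.00879), as did *Amt* of glycine cleavage (−1.24, adjusted *P* = 0.0497). No gene of this list passed in KO or DKO against late WT MEFs. *Psph*, the last step of serine synthesis, stood at 17.1 ± 6.45 CPM in DKO (n = 3) and 28.9 ± 4.94 CPM in late WT MEFs (n = 4) without overlap, a difference of −0.77 (SE 0.22) that did not pass (adjusted *P* = 0.0723). Against early WT MEFs, 9 of the 22 fell in DKO MEFs (8.92% of all genes did), with *Aldh1l2* at −2.20 (adjusted *P* = 0.00386) and *Mthfd1l* at −1.38 (adjusted *P* = 0.00116).

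Of 18 cytosolic tRNA synthetases, 1 fell with passage in each set, about the share of all genes that did (5.97% and 4.89%). They were *Cars1* in the *S6K1* set (−0.58, adjusted *P* = 0.0245) and *Gars1* in the *S6K1/S6K2* set (−0.40, adjusted *P* = 0.0398). All 18 estimates were below 0 in DKO against late WT MEFs, with a median of −0.30, and none passed, the smallest *P* value being that of *Rars1* (−0.62, adjusted *P* = 0.0553). Against early WT MEFs 9 of the 18 fell in DKO MEFs (8.92% of all genes did), led by *Aars1* (−0.91), *Vars1* (−0.85) and *Iars1* (−0.84). Of 15 eIF2 kinases and regulators, the kinase gene *Eif2ak2* fell with passage in the *S6K1/S6K2* set (−0.54, adjusted *P* = 0.0479), and no gene passed in the *S6K1* set or in either mutant against late WT MEFs. Of 16 ER chaperone and unfolded protein response genes, *Sdf2l1* (0.83, adjusted *P* = 0.00702) and the sensor kinase gene *Ern1* (0.66, adjusted *P* = 0.0497) rose with passage in the *S6K1* set. None of the 16 passed with passage in the *S6K1/S6K2* set or in either mutant against late WT MEFs. Against early WT MEFs, 1 of the 16 fell in DKO MEFs, beside 8.92% of all genes. Another 1 of the 16 rose, and the share of all genes that rose there is not given here.

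**Figure D5:**
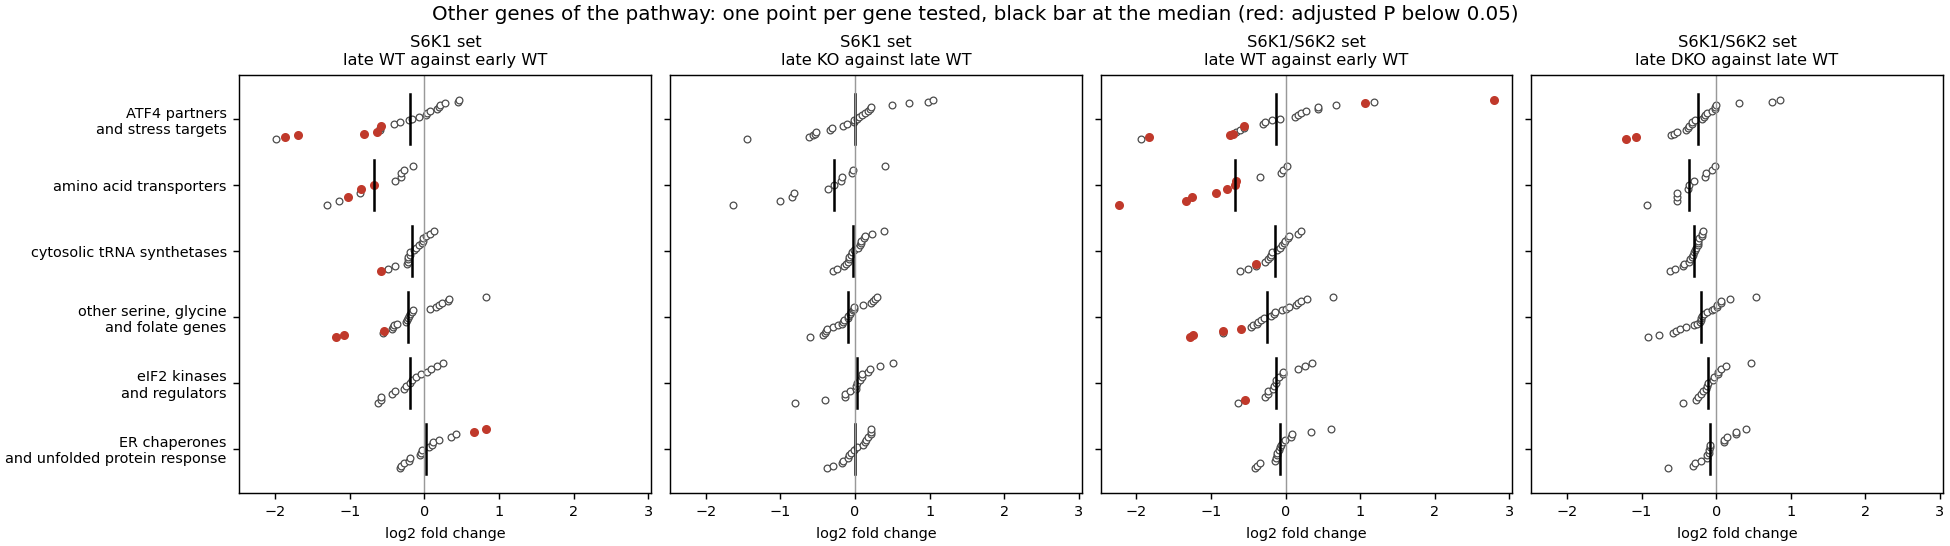
log2 fold change (horizontal axes) of every tested gene of 6 other pathway lists (vertical axis) in the 4 comparisons named above the panels, with 1 point per gene, red where an adjusted *P* of 0.05 was passed, and a black bar at the list's median. Amino acid transporters lie mostly below 0 with passage (median −0.68 in both sets), and no gene of the 6 lists passed in *S6K1* KO against late WT MEFs.

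The mean of the 6 stress genes and that of the 4 serine and folate genes, each centred within the MEF set, were compared with 14876 other genes across the 22 libraries as a description, in which group differences are included. The 5 genes most like the stress genes were *Epb4.1l3* (r = 0.91), *Ndrg1* (0.91), *Gpt2* (0.91), *Polr3c* (0.90) and *Kif2a* (0.89). The 5 most like the serine and folate genes were *Ap2a2* (0.91), *Cep55* (0.91), *Sars* (0.90), *Snx5* (0.90) and *Me2* (0.89). *Gpt2* and *Sars*, a tRNA synthetase gene, also belong to the pathway lists above.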

How the data were processed

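RNA-seq counts of 22 libraries of serially passaged MEFs were analysed, each library as 1 replicate. The deposited values are raw counts per gene made by the authors, without normalization, for 55401 identifiers. The sources differ on their making. The methods name CASAVA, TopHat, mm9 and HTSeq, whereas the submitters' processing notes name CASAVA, STAR 2.7.1a, DESeq2 1.28.1 and mm10. Of the identifiers, 22812 were absent from the mm9 annotation GENCODE vM1 and 8549 of these had counts. The annotation release and strand setting are not given in the sources used here. Coordinates and promoters came from RefSeq on GRCm38.p6 (mm10), symbols from a table that named 32589 identifiers (96.98% of counts), and exon lengths from GENCODE vM1.

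With edgeR 4.0.16 (R 4.3.3), low counts were removed by filterByExpr, TMM factors were computed and the quasi-likelihood test (robust fit) was run on the 3 groups of a MEF set, or on all 6 groups for interactions, with Benjamini-Hochberg adjustment over all genes tested. No block or covariate was used. CPM were scaled by TMM over the 22 libraries, and log2 CPM used a prior count of 2. Intervals are the estimate and its SE with the test's degrees of freedom. Correlations used 100000 resamples within groups, 2-sided. For scale, 3 counts are 0.173 to 0.279 CPM. Among the 30 pairs of libraries of a group, chi-square per degree of freedom was 20.6 to 266, so no pair agreed within sampling noise. Scripts were tested on simulated data.

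Besides the 10 genes, *Rps6kb1* and *Rps6kb2*, the text names from each list up to 3 rises and 3 falls among called genes with a mean of at least 1 CPM, or the gene with the smallest *P* where none passed, and the 5 genes most alike. The genes and lists were chosen with earlier results of these data known. Alternatives were DESeq2 1.42.0, RLE or total-count scaling, no filter, a Y-linked covariate, fits on all 6 or on 2 groups, a prior count of 0.5, and leaving out each library.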

Additional observations from a re-analysis of the deposited data

Results flagged for a closer look

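*Ppp1r15a*, the gene of the eIF2 phosphatase subunit GADD34, moved in opposite directions with passage in the 2 MEF sets, and the difference between the sets was 2.91 on the log2 scale (SE 0.20, edgeR adjusted *P* = 1.75e-08). Its libraries stood at 137, 128, 127 and 102 CPM (early WT), 37.1, 31.7, 34.2 and 32.3 CPM (late WT) and 40.9, 38.3 and 37.7 CPM (KO) in the *S6K1* set. In the *S6K1/S6K2* set they stood at 37.9, 51.5, 51.3 and 67.8 CPM (early WT), 123, 92.6, 96.3 and 118 CPM (late WT) and 110, 106 and 110 CPM (DKO). *Atf3* differed between the sets in the same test by 2.56 on the log2 scale. It stood at 5.61 to 20 CPM in early and 8.07 to 19.8 CPM in late WT MEFs of the *S6K1* set, and at 4.58 to 7.01 CPM and 30.4 to 44 CPM in the *S6K1/S6K2* set.

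*Asns* had a library that stood apart in 2 groups of the *S6K1/S6K2* set. In early WT MEFs the lowest library (194 CPM) lay below 244, 251 and 252 CPM, and in late WT MEFs the highest (220 CPM) lay above 165, 168 and 169 CPM. Among the 40 groups of 4 libraries examined, chance flags about 1 in 20.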

How the results depend on the processing

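No paired analysis was possible because the labels carry library codes and give no replicate numbers that groups share. The counts among the 10 genes and over all genes changed as follows, and the cause was not tested. In late against early WT MEFs of the *S6K1* set, 2 of the 10 genes passed with DESeq2 or a fit on all 6 groups, and 0 with total counts or a fit on the 2 groups, while all genes called went from 1827 to 3265 with the Y-linked covariate. In KO against late WT MEFs, 0 of the 10 passed throughout, and all genes called went from 6 to 261 with DESeq2, 43 without a filter, 38 with the Y-linked covariate and 16 with all 6 groups. In KO against early WT MEFs, 0 passed without a filter and 3 with the Y-linked covariate, and all genes called went from 1578 to 2675 with DESeq2 and 2564 with all 6 groups. In late against early WT MEFs of the *S6K1/S6K2* set, 5 passed with DESeq2 or total counts, and all genes called went from 1892 to 2845 with DESeq2. In DKO against late WT MEFs, 1 passed (*Psat1*) with RLE, total counts or a fit on the 2 groups, and all genes called went from 686 to 1206 with DESeq2. Genes differing between the sets went with DESeq2 from 106 to 222 (passage) and from 1 to 64 (genotype), the latter also to 3 without a filter.

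Leaving out each library gave, in the order of the 6 comparisons above (*S6K1* set passage, KO against late WT, KO against early WT, then the same of the *S6K1/S6K2* set), 0 to 2, 0 to 0, 0 to 1, 2 to 4, 0 to 3 and 3 to 7 of the 10 genes, and 1223 to 1749, 2 to 9, 540 to 2055, 885 to 2247, 97 to 783 and 1163 to 2757 of all genes. For the differences between the sets it gave 0 of the 10 genes each time, and 78 to 118 (passage) and 1 to 5 (genotype) of all genes.

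Leaving out 1 library turned the sign of these estimates, none of which had passed. They were *Ddit3* in *S6K1* set passage (−0.05 to 0.27), and *Atf4* (−0.11 to 0.02), *Ddit3* (−0.25 to 0.10), *Asns* (−0.08 to 0.12), *Psat1* (−0.27 to 0.15) and *Phgdh* (−0.11 to 0.11) in KO against late WT. *Ddit3* (−0.08 to 0.24) and *Sesn2* (−0.24 to 0.21) followed in KO against early WT, *Ddit3* (−0.11 to 0.14) and *Mthfd2* (−0.03 to 0.09) in *S6K1/S6K2* set passage, *Ddit3* (−0.05 to 0.18) and *Chac1* (−0.44 to 0.09) in DKO against late WT, and *Ddit3* (−0.03 to 0.20) in DKO against early WT. Between the sets they were *Atf4* (−0.11 to 0.09), *Ddit3* (−0.30 to 0.05), *Asns* (−0.25 to 0.01), *Chac1* (−0.27 to 0.41) and *Sesn2* (−0.02 to 0.41) by passage, and *Ddit3* (−0.04 to 0.32) and *Trib3* (−0.16 to 0.42) by genotype.

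Other settings also turned signs, for estimates that had not passed. With the Y-linked covariate these were *Sesn2* in *S6K1* set passage (0.05), *Ddit3* (0.13), *Asns* (−0.15), *Chac1* (−0.35), *Sesn2* (−0.44) and *Psat1* (−0.42) in KO against late WT, *Chac1* in DKO against late WT (0.08) and in the difference between the sets by genotype (0.36), and *Ddit3* in *S6K1/S6K2* set passage (−0.00). *Psat1* in KO against late WT was −0.01 with DESeq2, RLE, total counts and the 2 groups. *Ddit3* in *S6K1/S6K2* set passage was −0.06 with total counts and −0.00 with all 6 groups, *Mthfd2* there −0.02 with total counts, and *Ddit3* in DKO against early WT −0.02 with total counts. The correlation of *Atf4* with *Ddit3* was −0.05 with total counts, and those with *Chac1* (0.67), *Sesn2* (0.53), *Psat1* (0.73), *Phgdh* (0.49) and *Shmt2* (0.67) then passed. Of 520 gene estimates under these other settings, 477 kept their direction and side of the threshold. The refits that left out 1 library are not in this count.

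With 3 or 4 libraries a group, 95% intervals in KO against late WT MEFs ran from −0.38 to 0.33 for *Atf4* and from −0.55 to 0.20 for *Shmt2*, but from −1.22 to 0.27 for *Trib3* and from −0.53 to 1.09 for *Chac1*, so what was detectable differed by gene.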
